A study of Homo sapiens with 6 samples.

Results

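The 10 genes described here encode the 5 subunits of the transcription factor NF-kB (NFKB1, NFKB2, REL, RELA and RELB) and 5 of its regulators. The regulators are NFKBIA, NFKBIB, NFKBIE, TNFAIP3 and BIRC3. The genes were chosen by symbol, as subunits and regulators of the pathway, with earlier results of these data known but no threshold on their values. All 10 were among the 57773 genes of the deposited table, and all 10 had a mean of at least 1 FPKM (a read level corrected for the length of the gene and the size of the library), the level above which genes were tested. The study knocked down SMARCA4, the BRG1 motor subunit of SWI/SNF chromatin remodellers, in Hep3B, a human hepatocellular carcinoma cell line. Total RNA was sequenced from cells transfected with a control siRNA (si-Cont, n = 3 libraries) and from cells transfected with siRNA against SMARCA4 (si-SMARCA4, n = 3 libraries). Both groups were the same line grown in EMEM with fetal bovine serum. The siRNA sequences and the time of harvest were not given in the sources used here, and no group that received an NF-kB stimulus was analysed here.

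NF-kB subunits work as dimers. NFKB1 and NFKB2 are made as precursors whose C-terminal ankyrin repeats act like those of the IkB inhibitors, and which are processed to the DNA-binding p50 and p52, while RELA, RELB and REL carry the transactivation domains. In the canonical branch, the IKK kinases mark IkB proteins for degradation, which frees RELA-p50 dimers, and in the noncanonical branch the kinase NIK (MAP3K14) drives the processing of NFKB2 to p52, the partner of RELB. Several of these genes, NFKBIA, TNFAIP3, BIRC3, NFKB2 and RELB among them, are textbook targets of NF-kB itself, so that the pathway feeds back on its own parts. Transcript levels do not show protein, processing or location in the nucleus, none of which were measured here.

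The promoters are shown first for 5 genes, 4 whose transcripts were higher in si-SMARCA4 and, for contrast, NFKB1, whose transcript was not called different. Each line holds the 250 bases before 1 RefSeq start site (GRCh38.p14), 5′ to 3′ on the gene's strand, with capitals for matches to the 10-base kB consensus on either strand. The windows are BIRC3 at chr11:102317234-102317483 (plus strand), TNFAIP3 at chr6:137867009-137867258 (plus strand), NFKB2 at its second listed start site at chr10:102394328-102394577 (plus strand), NFKBIA at chr14:35404750-35404999 (minus strand) and NFKB1 at its first listed start site at chr4:102501109-102501358 (plus strand).
BIRC3: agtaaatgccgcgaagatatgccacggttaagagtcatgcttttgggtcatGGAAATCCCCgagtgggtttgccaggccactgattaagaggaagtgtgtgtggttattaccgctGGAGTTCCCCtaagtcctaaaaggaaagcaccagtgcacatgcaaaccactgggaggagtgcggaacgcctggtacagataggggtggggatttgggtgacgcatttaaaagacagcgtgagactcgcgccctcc
TNFAIP3: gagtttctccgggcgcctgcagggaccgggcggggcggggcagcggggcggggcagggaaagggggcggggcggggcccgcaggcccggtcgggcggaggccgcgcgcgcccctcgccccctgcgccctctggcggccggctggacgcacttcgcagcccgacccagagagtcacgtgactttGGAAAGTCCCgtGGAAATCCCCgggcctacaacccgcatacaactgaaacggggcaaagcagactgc
NFKB2: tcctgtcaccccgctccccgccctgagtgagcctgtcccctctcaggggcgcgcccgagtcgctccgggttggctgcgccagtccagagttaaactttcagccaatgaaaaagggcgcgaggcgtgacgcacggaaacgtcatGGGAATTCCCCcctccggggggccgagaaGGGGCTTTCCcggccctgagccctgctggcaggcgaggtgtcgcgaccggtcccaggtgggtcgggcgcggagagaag
NFKBIA: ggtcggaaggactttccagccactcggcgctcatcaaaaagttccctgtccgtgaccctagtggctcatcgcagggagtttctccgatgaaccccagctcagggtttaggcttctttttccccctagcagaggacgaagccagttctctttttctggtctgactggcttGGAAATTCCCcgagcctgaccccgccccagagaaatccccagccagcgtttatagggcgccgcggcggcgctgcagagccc
NFKB1: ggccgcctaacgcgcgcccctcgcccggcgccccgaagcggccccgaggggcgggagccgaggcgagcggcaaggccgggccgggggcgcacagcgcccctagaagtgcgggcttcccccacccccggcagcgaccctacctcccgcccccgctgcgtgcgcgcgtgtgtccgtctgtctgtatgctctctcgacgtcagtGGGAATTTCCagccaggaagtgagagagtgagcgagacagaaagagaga
BIRC3 and TNFAIP3 each held 2 separate matches, and the GGAAATCCCC of BIRC3 was also found in TNFAIP3. In NFKB2 the first capital run is a pair of overlapping matches. RefSeq promoters were matched by symbol for 8 of the 10 genes, with 13 start sites, and at least 1 match stood in 8 of the 13 windows and in 7 of the 8 genes. RELA had none. Among 35116 human promoter windows of the same length, 9.96% held at least 1 match. A match is a description of the letters in the window and not a measured binding site, and it was found beside genes that were called and beside genes that were not.

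**Figure D1:**
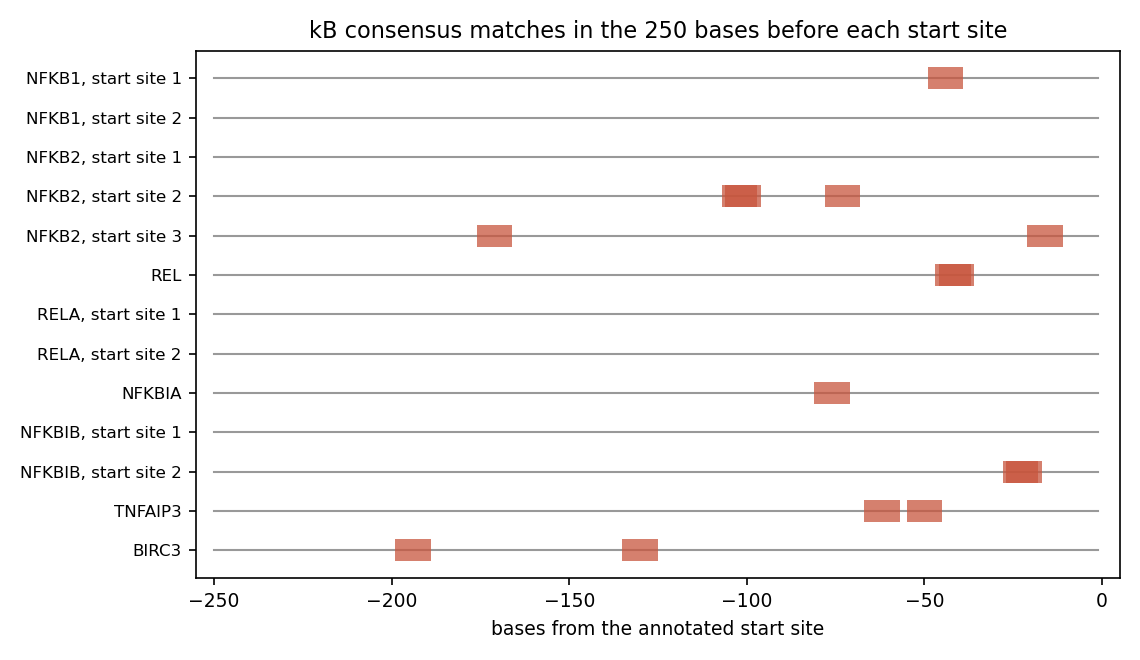
Positions of matches to the 10-base kB consensus in the 250 bases before each RefSeq start site of the 8 genes with a promoter entry. The x axis gives bases before the start site and each marker is 1 match. Matches stood in 8 of the 13 windows, and the first base of the NFKB1 match lay 49 bases before the start site.

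The targeted gene was checked first. SMARCA4 stood at 17.3 ± 1.98 FPKM (SD, n = 3) in si-Cont and at 3.86 ± 0.128 FPKM (SD, n = 3) in si-SMARCA4, which is 22.3% of the control level. Each library held 18873139 to 22443054 reads over genes, recovered from the steps of the FPKM values. They made up 64.8% to 68.6% of the FPKM denominator in si-Cont, against 62.1% to 63.4% after the knockdown. Each of the 10 genes was backed by 434 to 2582 reads in each library. These numbers speak for counting error only, since reads are not independent molecules. The second principal component, with 8.58% of the variance, held si-Cont replicate 2 at -11.0 and the other 5 libraries at -1.83 to 5.70. All 10 hepatocyte and hepatoma markers had at least 1 FPKM, and their sum was 3359 to 3751 FPKM in si-Cont, and 2429 to 2565 FPKM after the knockdown. Of 11 leukocyte markers only LYZ and CD68 reached 1 FPKM, with a sum over the list of 30.8 to 36.7 FPKM in si-Cont, and 26.8 to 27.6 FPKM after the knockdown. Of 8 fibroblast and stellate cell markers PDGFRA and LUM did, with sums of 9.53 to 10.6 and 13.3 to 13.9 FPKM, and of 6 endothelial markers none did, with sums of 0.366 to 0.513 and 0.690 to 0.798 FPKM. The endothelial markers VWF, CDH5, KDR and CLEC4G and the leukocyte markers MS4A1 and NKG7 were listed at 0 in all 6 libraries. The part of these marker levels in the results below was not tested.

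Of the 10 genes, 8 were higher in si-SMARCA4 (limma on log2(FPKM + 1), adjusted p under 0.05 over all 11123 genes tested), none was lower, and NFKB1 and REL were not called. Among all genes tested, 56% were called in either direction, 22.4% as higher and 33.6% as lower. That split moved with scaling, from 2494 higher and 3733 lower as deposited to 3253 and 3324 with median-ratio scaling. With voom on recovered reads it was 3847 and 2874. The median log2 fold change of the 10 genes was 0.38, beside -0.04 for all genes tested. BIRC3 differed most, at 2.35 times the control FPKM, followed by RELB (1.95 times), NFKB2 (1.74 times) and TNFAIP3 (1.70 times). The labels do not say whether replicates were separate cultures, so the p-values speak for the spread among these libraries only. The 3 libraries of each group did not overlap for any of the 10 genes, 9 of them higher in si-SMARCA4 and NFKB1 lower (exact two-sided permutation p = 0.1 each, the smallest possible). Among all genes tested, 62.3% did not overlap between the groups, and 25.7% did so with higher values in si-SMARCA4. In bulk RNA, more cells with a transcript and more transcript per cell cannot be told apart.

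**Figure D2:**
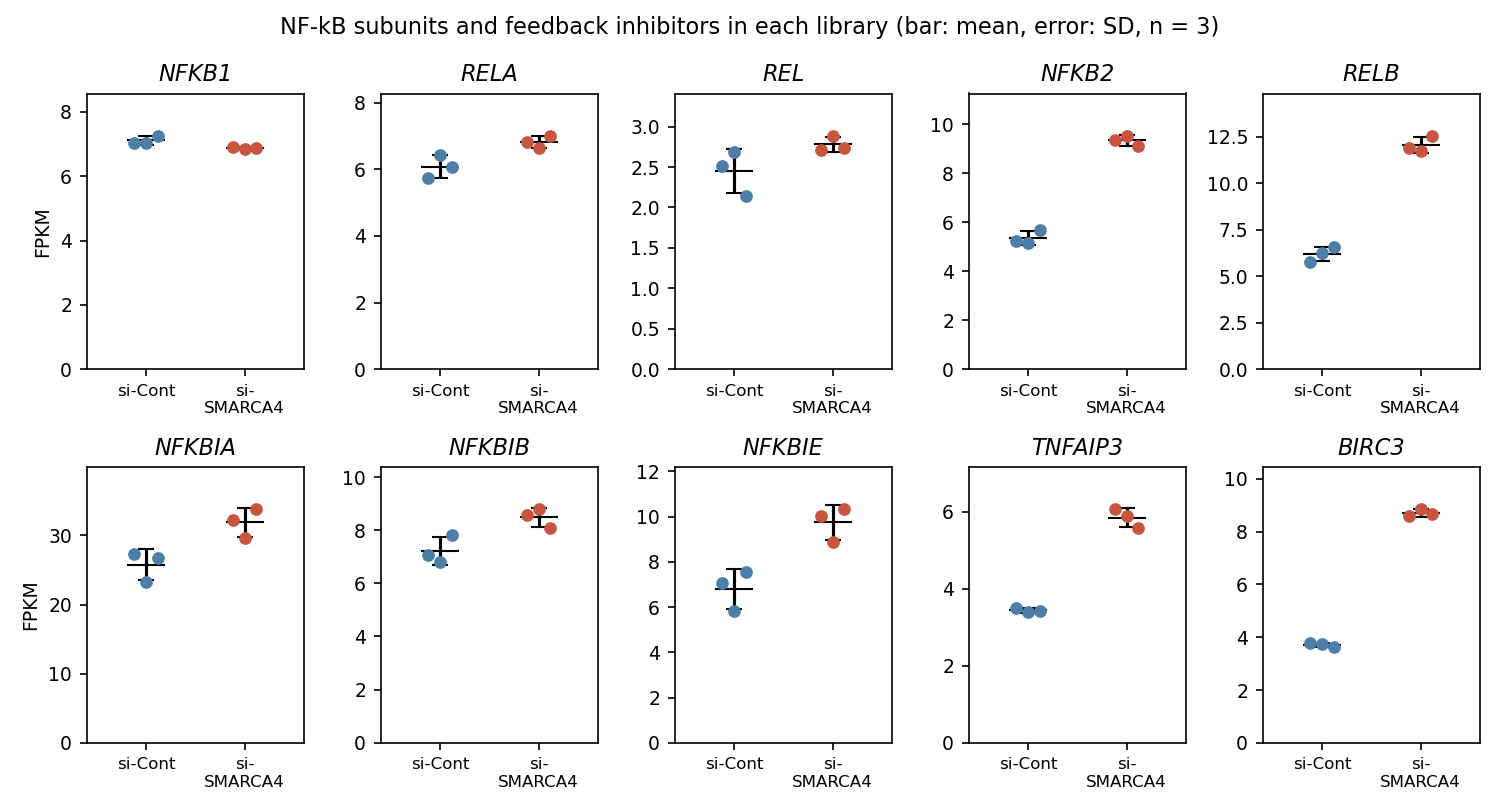
FPKM of each of the 10 genes in every library, with 1 panel per gene, si-Cont and si-SMARCA4 side by side, 1 point per library and a bar at each group's mean ± SD. The 3 si-SMARCA4 libraries lay above the 3 si-Cont libraries in every panel but that of NFKB1, where they lay below (6.83 to 6.91 against 7.02 to 7.26 FPKM as deposited).

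Among the subunits, NFKB2 and RELB, the pair of the noncanonical branch, had the largest differences. RELB (ENSG00000104856) had 5.77, 6.25 and 6.56 FPKM in si-Cont and 11.9, 11.7 and 12.6 FPKM in si-SMARCA4. The lowest si-SMARCA4 library stood well above the highest si-Cont library. The means were 6.19 ± 0.393 and 12.1 ± 0.445 FPKM (SD, n = 3 each), with a log2 fold change of 0.86 ± 0.05 (SE) and an adjusted p of 4.78e-07 in limma. NFKB2 (ENSG00000077150), the precursor of p52, had 5.25, 5.16 and 5.66 FPKM in si-Cont and 9.37, 9.54 and 9.11 FPKM in si-SMARCA4. The groups did not overlap here either. Its means were 5.36 ± 0.270 and 9.34 ± 0.216 FPKM (SD, n = 3 each), a log2 fold change of 0.70 ± 0.05 (SE) with a limma adjusted p of 9.54e-07.

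NFKB1 (ENSG00000109320), the precursor of p50, had 7.02, 7.04 and 7.26 FPKM in si-Cont and 6.91, 6.83 and 6.88 FPKM in si-SMARCA4. The si-SMARCA4 libraries were the lower ones, by a narrow margin. The log2 fold change was -0.04 ± 0.04 (SE; limma adjusted p = 0.423), close to the median of all genes. Its sign depended on the scaling of the libraries: the value was 0.02 at its highest over 3 other scalings and 0.05 with voom on recovered reads. Whether NFKB1 rose or fell was therefore not settled by these values.

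RELA (ENSG00000173039), the main transactivating subunit of the canonical branch, had 5.75, 6.44 and 6.06 FPKM in si-Cont and 6.81, 6.64 and 7.01 FPKM in si-SMARCA4. The groups were separate, but the gap between si-Cont replicate 2 and si-SMARCA4 replicate 2 was small. The log2 fold change was 0.14 ± 0.05 (SE; limma adjusted p = 0.0317). That call was lost when any library but si-Cont replicate 2 was left out. The adjusted p was then 0.115 without si-Cont replicate 1, 0.0712 without si-Cont replicate 3, and 0.0841, 0.0551 and 0.115 without si-SMARCA4 replicates 1, 2 and 3. Without si-Cont replicate 2 it was 0.00465.

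REL (ENSG00000162924), the c-Rel subunit best known from lymphocytes, was the lowest of the 10 genes in both groups. It had 2.52, 2.69 and 2.15 FPKM in si-Cont and 2.72, 2.89 and 2.73 FPKM in si-SMARCA4, groups that were separate by a narrow margin. The log2 fold change was 0.13 ± 0.06 (SE), and the limma adjusted p of 0.0904 missed the threshold. Without si-Cont replicate 2 the gene was called, with a log2 fold change of 0.18 and an adjusted p of 0.0194. Without si-Cont replicate 3 the value was 0.069, with an adjusted p of 0.338. In the GENCODE v29 annotation, 43.3% of the exonic bases of REL are shared with AC010733.2 on the same strand. Of the other 9 genes only TNFAIP3 (1.88% of exonic bases), NFKBIB (1.72%) and RELA (0.165%) overlap another gene there, on the opposite strand. How reads in such stretches were counted was not given in the sources used here.

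The make-up of the subunit transcripts differed with these changes. NFKB2 and RELB together made up 41.9%, 41.4% and 44.1% of the summed FPKM of the 5 subunits in the si-Cont libraries and 56.4%, 56.5% and 56.6% in the si-SMARCA4 libraries. The share of NFKB1 was 26.2% ± 0.581 in si-Cont and 18.1% ± 0.189 in si-SMARCA4 (SD, n = 3 each). The summed level of the 5 subunits was 27.2 ± 0.761 FPKM and 37.9 ± 0.372 FPKM. Ratios within a library do not depend on how that library was scaled. The ratio of NFKB2 to NFKB1 was 0.753 ± 0.0245 in si-Cont and 1.36 ± 0.0362 in si-SMARCA4, and that of RELB to RELA was 1.02 ± 0.0567 and 1.77 ± 0.0233 (SD, n = 3 each). Neither ratio overlapped between the groups, with an exact two-sided permutation p of 0.1, the smallest that 3 against 3 libraries allow, and 0.16 after Benjamini-Hochberg adjustment over 8 ratios. The ratio of REL to RELA was 0.403 and 0.408, with groups that overlapped (exact permutation p = 0.9).

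**Figure D3:**
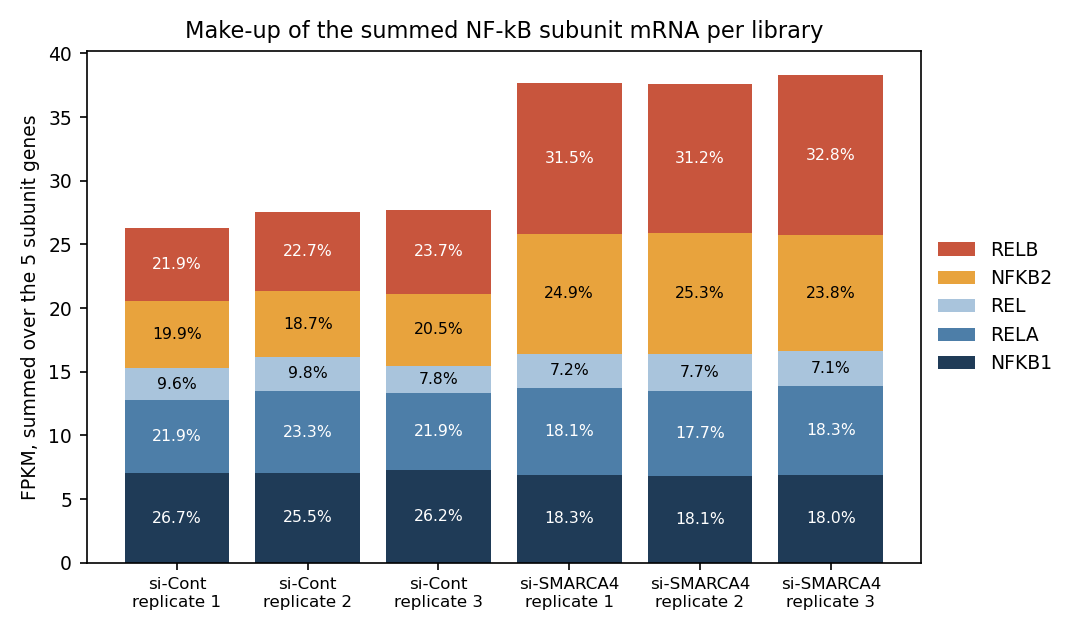
Summed FPKM of the 5 subunit genes in each library, stacked by subunit, with the share of each subunit in percent printed in its part. The shares of NFKB2 and RELB together come to 41.4% to 44.1% in the si-Cont libraries and 56.4% to 56.6% in the si-SMARCA4 libraries.

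The inhibitors of the IkB family hold NF-kB dimers in the cytoplasm. NFKBIA (ENSG00000100906), or IkB-alpha, the fast feedback inhibitor, was the most abundant of the 10 genes in both groups. It had 27.4, 23.3 and 26.7 FPKM in si-Cont and 32.2, 29.6 and 33.8 FPKM in si-SMARCA4, without overlap. This is a log2 fold change of 0.30 ± 0.07 (SE; limma adjusted p = 0.00446). NFKBIE (ENSG00000146232), or IkB-epsilon, had 7.06, 5.83 and 7.54 FPKM in si-Cont and 10.04, 8.87 and 10.3 FPKM in si-SMARCA4. The second replicate was the lowest of its group on both sides, and the groups did not overlap. The fitted difference was 0.46 ± 0.08 on the log2 scale (SE; limma adjusted p = 0.000670). NFKBIB (ENSG00000104825), or IkB-beta, is known to be degraded more slowly than IkB-alpha. It had 7.05, 6.79 and 7.81 FPKM in si-Cont and 8.57, 8.79 and 8.10 FPKM in si-SMARCA4, and the groups came close at si-Cont replicate 3 and si-SMARCA4 replicate 3. On the log2 scale the difference was 0.21 ± 0.06 (SE; limma adjusted p = 0.00938).

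The ratio of NFKBIA to NFKBIE was 3.80 ± 0.236 in si-Cont and 3.27 ± 0.0677 in si-SMARCA4 (SD, n = 3 each), without overlap (exact permutation p = 0.1, adjusted 0.16). Ratios of NFKBIA to RELA (4.26 and 4.67, exact permutation p = 0.3) and of NFKBIA to NFKBIB (3.57 and 3.77, exact permutation p = 0.7) overlapped between the groups. The summed level of the 3 IkB transcripts was 39.8 ± 3.39 FPKM in si-Cont and 50.1 ± 2.54 FPKM in si-SMARCA4. Per unit of summed subunit FPKM it was 1.58, 1.30 and 1.52 in si-Cont and 1.35, 1.26 and 1.36 in si-SMARCA4. The groups overlapped in that measure, as si-Cont replicate 2 lay among the si-SMARCA4 libraries. Between libraries of the same number it was lower in si-SMARCA4 in all 3 pairs, though by little in replicate 2 (1.30 and 1.26). The titles do not state that these libraries are paired, and no test was run on the pairs.

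The feedback regulators TNFAIP3 and BIRC3 act upstream, on ubiquitin chains. TNFAIP3 (ENSG00000118503) encodes A20, a ubiquitin-editing enzyme that ends signalling to IKK. It had 3.50, 3.39 and 3.43 FPKM in si-Cont and 6.07, 5.90 and 5.58 FPKM in si-SMARCA4, with a wide gap between the groups. The difference came to 0.63 ± 0.05 on the log2 scale (SE; limma adjusted p = 1.52e-06). Per unit of NFKBIA, TNFAIP3 stood at 0.134 ± 0.0101 in si-Cont and 0.184 ± 0.0175 in si-SMARCA4 (SD, n = 3 each; exact permutation p = 0.1, adjusted 0.16).

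BIRC3 (ENSG00000023445) encodes cIAP2, a ubiquitin ligase that works at TNF receptors and in the TRAF complex that keeps NIK low. It had 3.77, 3.74 and 3.62 FPKM in si-Cont and 8.58, 8.86 and 8.69 FPKM in si-SMARCA4. Every si-SMARCA4 library was above every si-Cont library by more than the level of the si-Cont libraries themselves. A log2 fold change of 1.04 ± 0.04 (SE; limma adjusted p = 3.44e-08) put the gene at rank 51 from the highest of 11123. BIRC2, its paralog cIAP1, had 12.5 ± 1.08 FPKM in si-Cont and 17.3 ± 0.0916 FPKM in si-SMARCA4 (SD, n = 3 each), a log2 fold change of 0.44 with a limma adjusted p of 0.000119. The ratio of BIRC3 to BIRC2 was 0.298 ± 0.0277 and 0.502 ± 0.00890 (SD, n = 3 each), without overlap between the groups (exact permutation p = 0.1, adjusted 0.16). The 5 tested genes whose log2(FPKM + 1) was most like that of BIRC3 over the 6 libraries were INO80, DST, MYO9A, TNRC6A and PPP1R15A, at a Pearson r of 0.999 each, and 255 genes in all had an r of at least 0.99. With 6 libraries in 2 groups, such values mostly describe the difference between the groups.

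**Figure D4:**
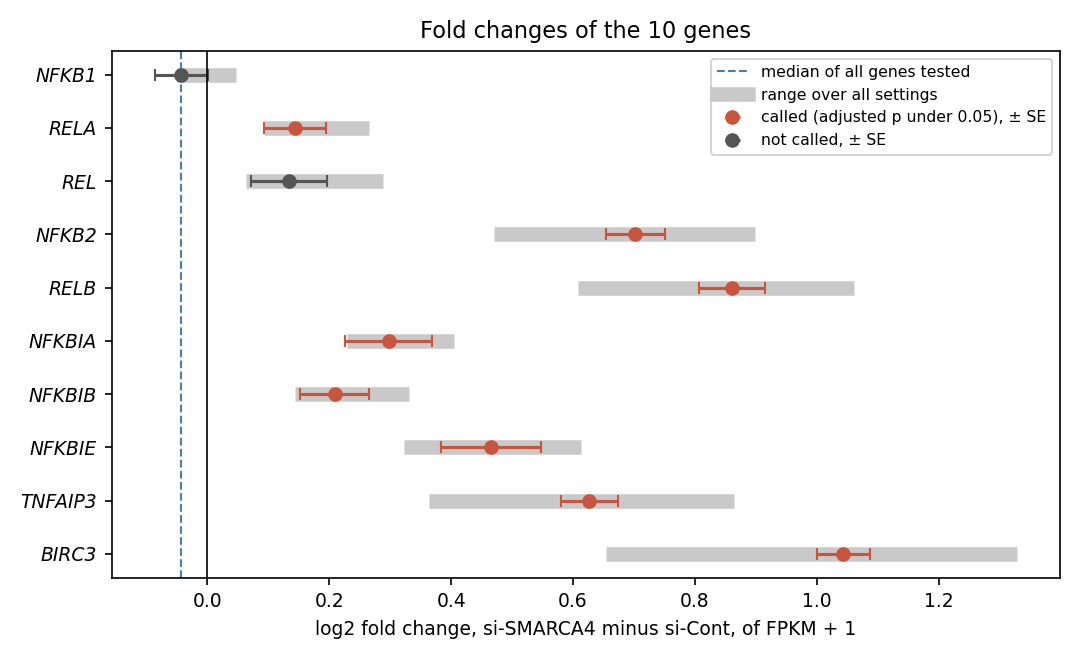
Log2 fold change of each of the 10 genes, si-SMARCA4 minus si-Cont, of FPKM + 1, as a point with its SE, over a grey band that spans the main fit and all alternative settings. The 8 called genes stayed above 0 in each setting run, REL did too without being called in the main fit, and the band of NFKB1 crosses 0.

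The order of the 10 genes by FPKM, which is scaled by gene length, changed between the groups. In si-Cont NFKBIA was highest, and NFKBIB, NFKB1, NFKBIE, RELB and RELA followed, each overlapping with its neighbour in the order over the 3 libraries. NFKB2, BIRC3, TNFAIP3 and REL came next, each below the one before it without overlap. In si-SMARCA4 RELB stood second after NFKBIA, with no overlap with either neighbour. NFKBIE and NFKB2 came next and overlapped, as did BIRC3 with NFKBIB and NFKB1 with RELA further down, and TNFAIP3 and REL were again the last. BIRC3 had thus passed RELA and NFKB1, which lay above it in si-Cont.

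The rest of the pathway was read from 7 lists of 111 symbols, of which 109 were in the table and 88 were tested. Of those 88, 39 were higher (44.3%) and 20 lower (22.7%), beside 22.4% and 33.6% of all genes tested. All 4 shares are for the values as deposited, and those over all genes moved with the scaling of the libraries. The lists were written with earlier results of these data known, so these shares are a description. Among the upstream receptors and adapters, 10 of 18 tested genes were higher and 3 lower, with a median log2 fold change of 0.16. Of those called higher, 1 stood below the filter of 1 FPKM in si-Cont (0.803) and passed it through si-SMARCA4 (1.26). It is also counted among the 39. IFIH1, a sensor of viral RNA, had 2.36 ± 0.171 FPKM in si-Cont and 4.06 ± 0.137 in si-SMARCA4 (log2 fold change 0.59), and the interleukin-1 receptor IL1R1 had 3.22 and 4.66 (0.42). MYD88, the adapter of Toll-like and interleukin-1 receptors, was lower, at 2.33 ± 0.0999 and 1.15 ± 0.0573 FPKM (-0.63), as was the mitochondrial adapter MAVS, at 12.3 and 8.12 FPKM (-0.55). Without si-Cont replicate 2, 5 genes of this list were called lower instead of 3.

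Of 11 tested IKK subunits and upstream kinases, 3 were higher and 3 lower, with a median of 0.05. With voom on recovered reads 5 were called higher and 2 lower. TBK1, an IKK-related kinase, had 7.78 FPKM in si-Cont and 10.2 in si-SMARCA4 (log2 fold change 0.35). MAP3K14, which encodes NIK, had 1.37 ± 0.137 and 2.05 ± 0.190 FPKM (0.36), though 12.3% of its exonic bases lie across from MAP3K14-AS1 on the other strand and the strandedness of the reads was not given in the sources used here. TAB3, a partner of the kinase TAK1, had 6.04 and 4.94 FPKM (-0.24), and the kinase MAP3K3 had 2.29 and 1.86 FPKM (-0.20).

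Of 15 tested ubiquitin ligases and parts of the ligase that degrades IkB, 2 were higher and 5 lower, with a median of 0.00. TRAF3, which brings NIK to the cIAP ligases, had 3.18, 3.40 and 3.58 FPKM in si-Cont and 2.20, 1.90 and 1.85 FPKM in si-SMARCA4. All si-SMARCA4 libraries lay below all si-Cont libraries (log2 fold change -0.56 ± 0.06 SE, limma adjusted p 2.23e-05). RNF31, the catalytic part of the linear ubiquitin ligase, had 4.76 and 3.40 FPKM (-0.39). SKP1, a part of the IkB ligase, had 8.44 and 6.92 FPKM (-0.25). The counts of this list moved with single libraries: 1 gene was called higher without si-Cont replicate 3, si-SMARCA4 replicate 2 or si-SMARCA4 replicate 3, and 3 were called lower without si-Cont replicate 3 or si-SMARCA4 replicate 2. The number called higher was 4 under each of 3 other scalings. With voom on recovered reads 6 genes of this list were called higher and 3 lower, so the balance of its calls was not stable.

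Of 10 tested partners of A20 and deubiquitinases, 9 were higher and none lower, with a median of 0.20. RNF11, a partner in the A20 complex, had 11.4 ± 1.16 FPKM in si-Cont and 22.8 ± 0.835 in si-SMARCA4 (log2 fold change 0.94, limma adjusted p 1.12e-06). ZC3H12A, an RNase that limits inflammatory transcripts, had 2.10 and 3.33 FPKM (0.48), and the A20 adapter TAX1BP1 had 27.7 and 36.2 FPKM (0.38). The ligase ITCH, also of the A20 complex, had 16.4 and 19.3 FPKM (0.22).

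**Figure D5:**
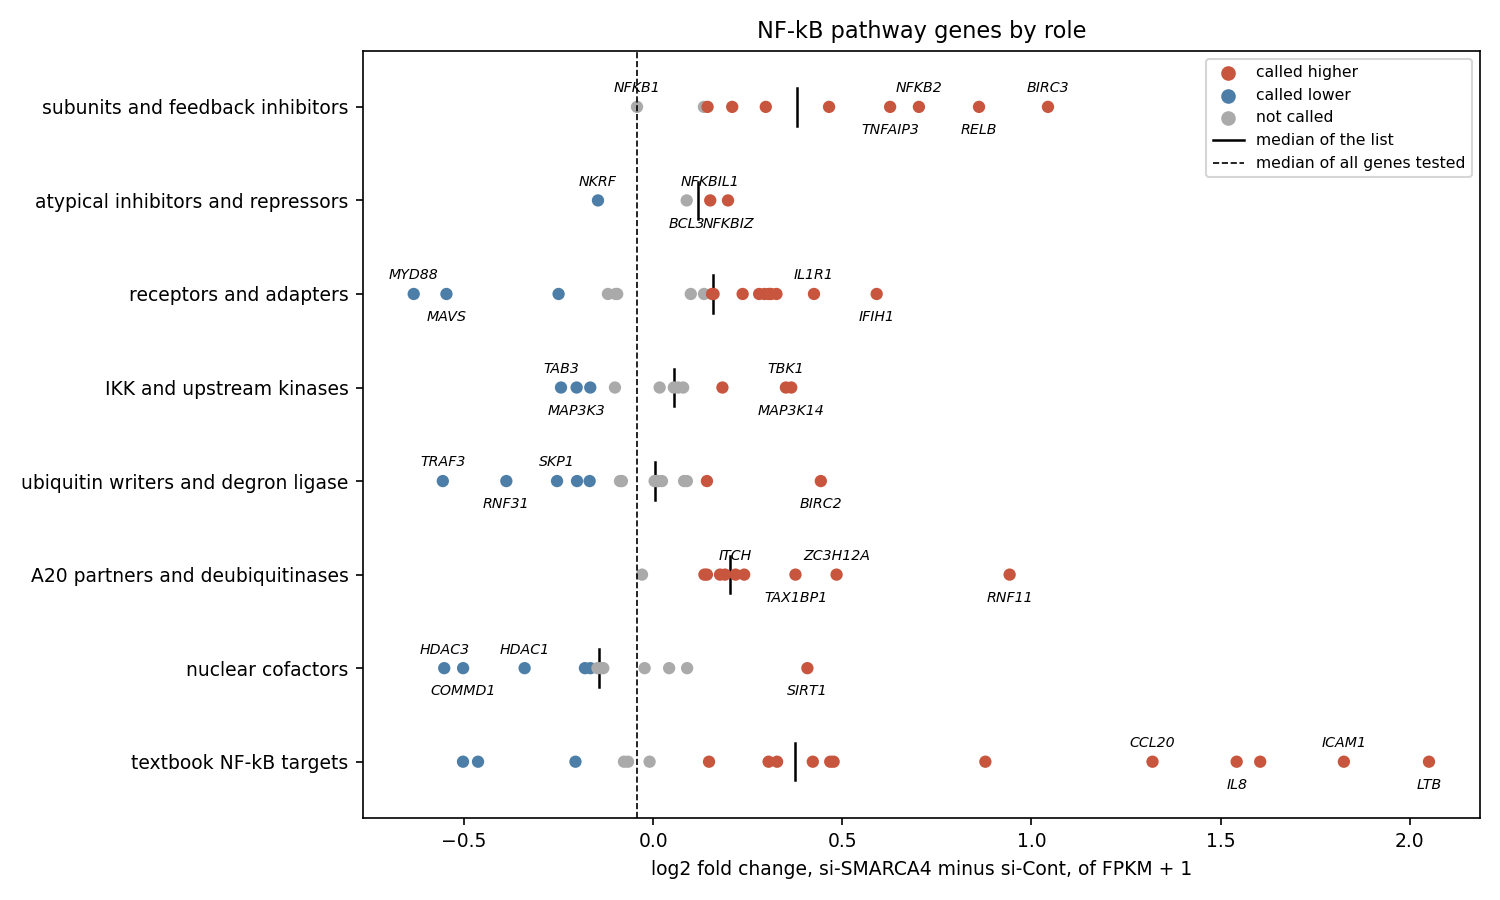
Log2 fold change, si-SMARCA4 minus si-Cont, of FPKM + 1, for each tested gene of the pathway by role, with 1 point per gene coloured by its call, a bar at the median of each list and a dashed line at the median of all genes tested (-0.04). The medians lay at 0.38 for the subunits and feedback inhibitors, 0.20 for the A20 partners and deubiquitinases and -0.14 for the nuclear cofactors.

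Of 4 tested atypical inhibitors and repressors, 2 were called higher and 1 lower, with a median of 0.12. NFKBIZ, or IkB-zeta, a nuclear cofactor, had 6.73 and 7.86 FPKM (0.20 on the log2 scale, limma adjusted p 0.00752). NFKBIL1 had 11.6 and 12.9 FPKM (0.15, limma adjusted p 0.0223), and the repressor NKRF had 2.83 and 2.46 FPKM (-0.15, limma adjusted p 0.0232). The NFKBIL1 call was lost without si-SMARCA4 replicate 1, 2 or 3 (adjusted p 0.0704, 0.0844 and 0.0613). The NKRF call was lost without si-Cont replicate 1, si-SMARCA4 replicate 2 or si-SMARCA4 replicate 3 (adjusted p 0.0754, 0.0713 and 0.0811) under median-ratio (0.0759) and upper-quartile scaling (0.112), and with voom on recovered reads (0.220). BCL3, which binds p50 and p52 dimers in the nucleus, had 1.61 and 1.77 FPKM and was not called (adjusted p 0.284), with a log2 fold change of 0.09. It was called without si-Cont replicate 2 (0.16, adjusted p 0.0367), while the value was 0.049 without si-Cont replicate 3 (adjusted p 0.608) and 0.055 without si-SMARCA4 replicate 3 (adjusted p 0.580).

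Of 12 tested nuclear cofactors, 1 was higher and 5 lower, with a median of -0.14. SIRT1, a deacetylase of RELA, had 4.22 FPKM in si-Cont and 5.93 in si-SMARCA4 (log2 fold change 0.41), while HDAC3, another, had 6.62 and 4.18 FPKM (-0.55). COMMD1, which aids the turnover of RELA, had 4.45 and 2.84 FPKM (-0.50), and the deacetylase HDAC1 had 25.0 and 19.5 FPKM (-0.34). Without si-Cont replicate 2, 3 genes of this list were called higher. Of 18 tested textbook targets other than the 10 genes, 12 were higher and 3 lower, with a median of 0.37. The 4 with the smallest p were LTB, a ligand of the noncanonical branch, at 2.996 and 15.5 FPKM (2.05), the adhesion molecule ICAM1 at 20.1 and 73.9 FPKM (1.83), and the chemokines IL8 at 27.4 and 81.3 FPKM (1.54) and CCL20 at 20.5 and 52.6 FPKM (1.32). Each of these 4 had groups that did not overlap and a limma adjusted p of 8.84e-08 or less.

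Across all genes, those whose longest annotated 3′ UTR held the 7-base sequence CTGTCCA or TGTCCAA were called lower more often, at 43.8% of 2393 genes with one and 31.0% of 7959 without. These sequences were picked earlier from the fold changes of these same libraries, so the shares are a description. They were not adjusted for the length of the 3′ UTR. Of the 10 genes, REL alone held one (TGTCCAA). The 3′ UTR of SMARCA4, the targeted gene, held both. Of the other pathway genes named here, TRAF3, MYD88, MAP3K3 and NKRF, each lower in si-SMARCA4, held one too, and so did MAP3K14 and CCL20, which were higher. TAB3, RNF31, SKP1, MAVS, HDAC1, HDAC3 and COMMD1, also lower, held none, and neither did the other list genes named as higher. The part of these sequences in the values above was not tested.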

How the data were processed

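RNA sequencing values of 6 Hep3B libraries were used, 3 per group, with groups and replicate numbers from the sample titles. The authors deposited FPKM per gene and, per the submitters' processing notes, used the hg19 build. The aligner, counter, annotation and strandedness were not given in the sources used here. Genes with a mean of at least 1 FPKM over the 6 libraries were kept. Their log2(FPKM + 1), which understates fold changes of low genes, was fitted with limma 3.58.1 in R 4.3.3 (trend, two-sided, Benjamini-Hochberg over 11123 genes, threshold 0.05). Ratios of FPKM within a library and single genes were compared by exact two-sided permutation tests over the libraries.

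Of 25119 genes above 0, 25116 (99.99%) had FPKM that came out as whole reads (relative tolerance 1e-08). The recovered reads entered a voom fit as an alternative. The other alternatives were pseudocounts of 0.1 and 5, other filters and scalings, no trend, summed rows of 1 symbol, a replicate block, and each library left out. Deviations from the group mean correlated at 0.215, 0.181 and 0.162 between libraries of the same number and at -0.171 to 0.003 between others. Deviations cancel within each group, so the values between others are not independent of those of the same number. The correlations were weak, and the numbers were taken as a possible pairing only. That pairing comes from the numbers in the titles, which do not say that libraries are paired. The main fit and the exact permutation tests did not use it, and among the fits only the replicate block did.

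The 10 genes and all lists were chosen with earlier results of these data known. Besides the 10 genes, SMARCA4 and BIRC2, the text names the up to 4 genes of each list with the smallest limma p, whether past the threshold or not, and the 5 genes most like BIRC3. Promoters came from the RefSeq table (GRCh38.p14). Gene overlaps and 3′ UTRs came from GENCODE v29 on GRCh38, a newer build than that of the authors' values. The longest annotated 3′ UTR of each gene was searched. Python 3.11.15 and pandas 2.3.3 ran the tables. The fit was also run on simulated data with far fewer changed genes than were called here, and no result above rests on that run.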

Additional observations from a re-analysis of the deposited data

How the results depend on the processing

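Over 17 alternative settings, the 8 called genes of the 10 kept their direction, and all but RELA kept their call. RELA kept its direction but lost the call without a filter on low values (log2 fold change 0.14, adjusted p 0.0640) and without single libraries (0.11 to 0.18 over the 6 libraries left out). REL gained a call with voom on recovered reads (0.29, adjusted p 0.0137), and its range over single libraries left out was 0.069 to 0.18. A fit with the replicate number as a block changed no call among the 10 genes and called 6760 genes in all, beside 6227 without the block. Of 168 comparisons of the 10 genes with a setting, 160 kept their call, 6 lost it and 2 gained one. Of 465 for the other named genes, 455 kept it, 9 lost it and 1 gained one.

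With a mean of at least 5 FPKM, fewer genes were tested (6120), 3683 were called, and 31 genes of the pathway lists were called, beside 59 in the main fit. At that filter REL and TNFAIP3 were not tested. Leaving out single libraries gave 5174 to 7141 called genes. Scaling moved the split of all called genes between higher and lower: 2494 and 3733 as deposited, 3253 and 3324 with median-ratio scaling, 3425 and 3137 with upper-quartile scaling, 3346 and 3278 with quantile normalization, and 3847 and 2874 with voom. The median of all genes lay between -0.04 and 0.04 over these. With a pseudocount of 1 in both FPKM, the log2 difference of NFKB2 to NFKB1 was 0.75 in place of 0.85, and that of BIRC3 to BIRC2 was 0.60 in place of 0.76. The cause of the RELA and REL changes was not tested.

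The design holds 1 cell line and 3 libraries per group, and the exact test cannot give a p under 0.1. Exonic bases shared with AC010733.2 in GENCODE v29 limit REL, since how reads there were counted was not given in the sources used here. The unknown strandedness of the reads limits MAP3K14. NFKB1 was not called in any setting run, and its log2 fold change ranged from -0.05 to 0.05.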

Other observations

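Levels of CREBBP and EP300, both coactivators of NF-kB, set si-Cont replicate 2 apart, a pattern picked after the values were seen. CREBBP had 3.75 FPKM in that library and 2.003 and 2.24 in si-Cont replicates 1 and 3. EP300 had 11.15 FPKM there and 6.85 and 7.24 in the other two. The CREBBP and EP300 values belong to 1 library of 3, and no test was run on them.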
